A study of Mus musculus with 16 samples.

Results

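The Dppa (developmental pluripotency-associated) genes were named for expression that follows Pou5f1 in early embryos and embryonic stem (ES) cells, and they share a name more than a sequence. The 4 genes described here, Dppa2, Dppa3, Dppa4 and Dppa5a, were chosen by name from a table of 21977 genes. Dppa1, the other row whose name begins with Dppa, had 0 RPF reads and 1 total RNA read over all libraries and was not tested. Ribosome-protected fragments (RPFs, the stretches of mRNA covered by ribosomes) and total RNA were sequenced from the same 8 cultures of RF8 mouse ES cells, giving 16 libraries. All cultures were kept in LIF, the cytokine that holds mouse ES cells undifferentiated, on gelatin. They comprised 3 Nat1-/- cultures (B12, B2 and C3), 3 Nat1+/- cultures (A7, B4 and C1) and 2 wild-type (WT) cultures (WTex1 and WTex2). Nat1 is an older name of Eif4g2, a translation initiation scaffold related to eIF4G but unable to bind the cap-binding factor eIF4E. The Nat1-/- and Nat1+/- cultures carry names of separate clones, while the WT cultures are repeats of 1 line, so that the spread between WT cultures includes no clonal difference.

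Dppa2 and Dppa4 are SAP-domain proteins that bind each other and CpG-rich chromatin, keep many developmental promoters in a poised bivalent state and switch on genes of the 2-cell embryo. Dppa3, also called Stella or PGC7, is a small basic protein that protects the maternal genome from demethylation after fertilisation, restrains the DNA methylation factor Uhrf1 in oocytes, and marks primordial germ cells and naive ES cells. Dppa5a, also called Esg1, is a KH-domain protein that binds RNA and is abundant in ES cells and early embryos.

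Values are normalised reads, meaning each library's read counts after division by its own size factor. Libraries held 17.5 to 23.8 M (mega) RPF reads and 13.2 to 42.6 M total RNA reads. Total RNA libraries of both WT cultures and of Nat1-/- B12 held 33.6 to 42.6 M reads and those of the other 5 cultures 13.2 to 16.4 M. Eif4g2 footprints, the check of the genotype labels, averaged 1042 ± 105 in Nat1-/- cultures, 8381 ± 1636 in Nat1+/- cultures and 15764 ± 2690 in WT cultures (SD, n = 3, 3 and 2). In total RNA Eif4g2 had 12249, 8795 and 5085 reads in Nat1-/- B12, B2 and C3, against 15335, 12092 and 10674 in Nat1+/- A7, B4 and C1. These overlapped and were not called different (log2 -0.62, adjusted p = 0.137), so that Eif4g2 checks the labels of these 2 genotypes in RPF and not in total RNA. The 8 ES cell markers were present in all cultures and summed to 125955 to 144654 RPF reads in Nat1-/- cultures, 85456 to 94581 in Nat1+/- cultures and 70107 to 90177 in WT cultures. The 9 fibroblast markers summed to 163 to 188, 502 to 2088 and 9393 to 16156 RPF reads in Nat1-/-, Nat1+/- and WT cultures. Levels are not compared between genes, since transcript lengths were not used.

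Dppa3 fell in Nat1-/- cultures to a few percent of its level in the other genotypes, both in footprints and in RNA. Dppa5a moved the other way and was highest in Nat1-/- cultures, intermediate in Nat1+/- cultures and lowest in WT cultures. Neither Dppa2 nor Dppa4 passed the test in RPF or total RNA in any comparison. The ratio of RPF to total RNA, taken as translational efficiency, passed the test for Dppa4 only when the libraries of 1 culture were paired.

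**Figure D1:**
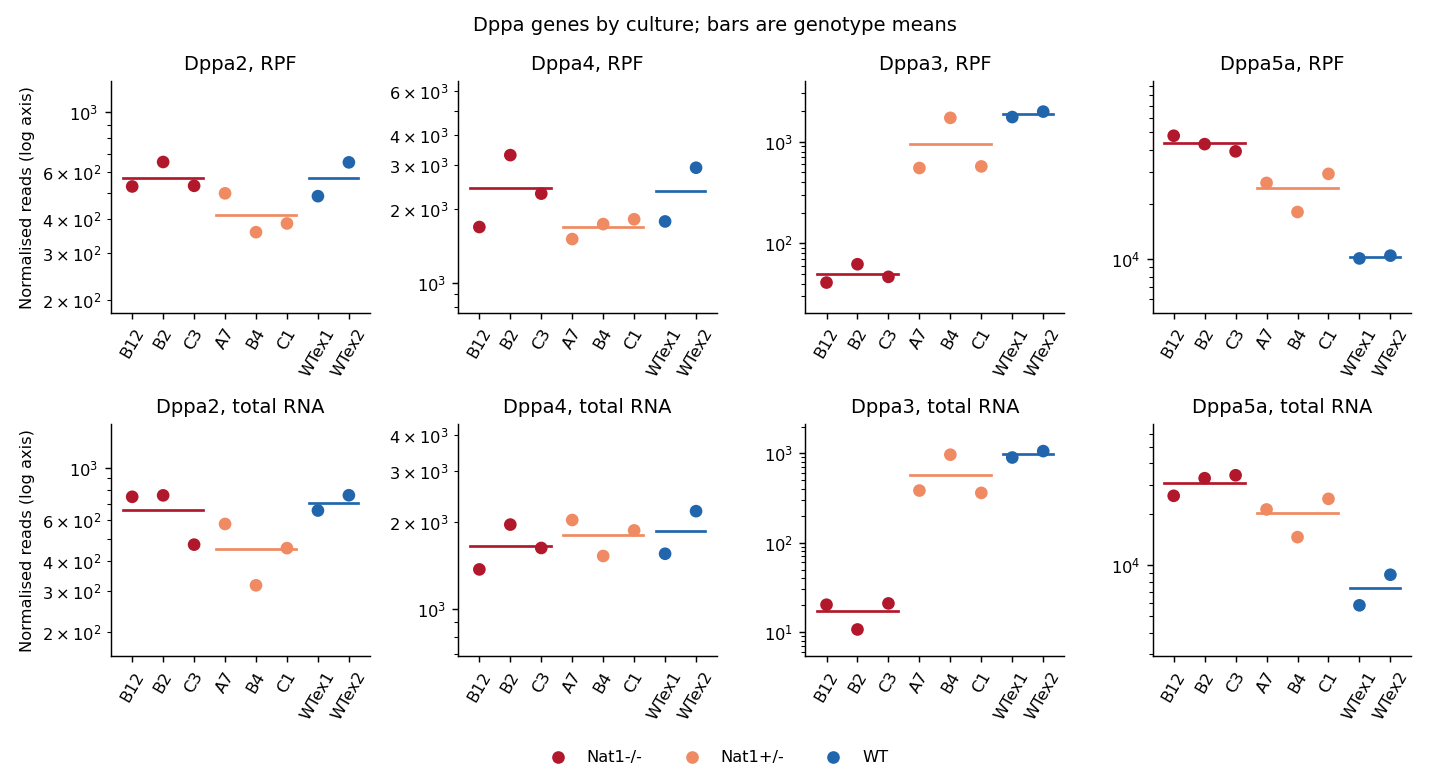
Normalised reads (log axis, a separate scale in each panel) of the 4 Dppa genes in RPF (top) and total RNA (bottom) in each culture; points are libraries, horizontal bars genotype means, and colours genotypes. The 3 Nat1-/- cultures lie between 41.0 and 62.2 RPF reads for Dppa3 and above every other culture for Dppa5a.

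Dppa3, on chromosome 6, had 41.0, 62.2 and 46.7 RPF reads in Nat1-/- B12, B2 and C3, against 551, 1717 and 571 in Nat1+/- A7, B4 and C1 and 1748 and 1978 in WTex1 and WTex2. Its total RNA was 20.2, 10.7 and 20.9 in the Nat1-/- cultures, against 384, 967 and 361 in the Nat1+/- cultures and 899 and 1061 in the WT cultures. The 3 Nat1-/- cultures were far below all others in both assays, and among the Nat1+/- cultures B4 stood apart from A7 and C1 and close to WT. Dppa3 in Nat1-/- cultures thus averaged 5.28% of its Nat1+/- level and 2.68% of its WT level in RPF, and 3.02% and 1.76% in total RNA. In bulk cultures, fewer cells with Dppa3 and less Dppa3 per cell cannot be told apart.

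Between Nat1-/- and Nat1+/- cultures the log2 fold change of Dppa3, on the log2(value + 1) scale, was -4.02 ± 0.39 in RPF and -4.87 ± 0.38 in total RNA (SE, n = 3 and 3; limma adjusted p = 0.000116 and 3.2e-05). These were the 74th lowest of 13110 and the 27th lowest of 13813 fitted values. The background was broad: 36.1% of all genes tested were called in RPF (17.6% higher, 18.6% lower) and 40.0% in total RNA (19.8% higher, 20.2% lower). In 48.1% of genes in RPF and 50.2% in total RNA, the 3 Nat1-/- values did not overlap the 3 Nat1+/- values. Leaving out any one culture left the Dppa3 change between -4.30 and -3.48 in RPF and between -5.12 and -4.41 in total RNA, called each time. An exact permutation test gave p = 0.1 in both assays, the smallest that 3 against 3 allows (two-sided).

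Against WT cultures, Dppa3 in Nat1-/- cultures changed by -5.21 ± 0.43 in RPF and -5.80 ± 0.43 in total RNA (log2, SE; adjusted p = 5.5e-05 and 2.1e-05), with 34.8% and 35.0% of genes called. This comparison and the previous one share the Nat1-/- libraries. Nat1+/- against WT gave -1.19 ± 0.43 in RPF and -0.93 ± 0.43 in total RNA, neither called (adjusted p = 0.0973 and 0.173), where 10.5% and 10% of genes were called. Without Nat1+/- replicate 2 (B4) both passed, at -1.73 (adjusted p = 0.00915) and -1.39 (adjusted p = 0.0420). B4 also had the highest fibroblast-marker sum of the Nat1+/- cultures, 2088 RPF reads; its part in the Dppa3 value was not tested.

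**Figure D2:**
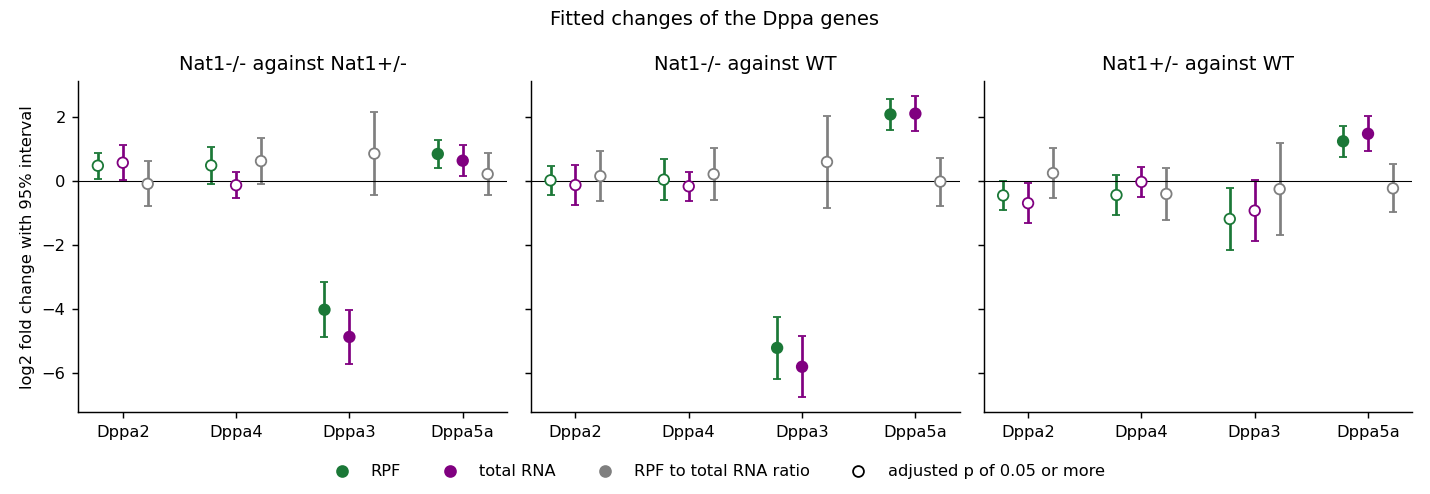
Fitted log2 fold changes of the Dppa genes with 95% intervals, for RPF, total RNA and their ratio (colours) in each comparison (panels); filled points have an adjusted p under 0.05 in the unpaired fit. Dppa3 lies near -4.02 and -4.87 and Dppa5a near 0.84 and 0.63 in Nat1-/- against Nat1+/-, while the intervals of all 4 ratios include 0.

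Dppa5a, on chromosome 9, had 47720, 42911 and 39162 RPF reads in Nat1-/- B12, B2 and C3, against 26250, 18157 and 29443 in Nat1+/- A7, B4 and C1 and 10084 and 10449 in the WT cultures. Its total RNA was 25747, 32709 and 34039 in the Nat1-/- cultures, against 21393, 14689 and 24715 in the Nat1+/- cultures and 5818 and 8812 in the WT cultures. No genotype overlapped another in either assay, although C1 and B12 were close in total RNA. Between Nat1-/- and Nat1+/- the same held for 48.1% of genes in RPF and 50.2% in total RNA. The shares for pairs with WT are not given here. Against Nat1+/- cultures, Dppa5a rose in Nat1-/- cultures by 0.84 ± 0.19 in RPF (log2, SE; adjusted p = 0.00836) and by 0.63 ± 0.22 in total RNA (adjusted p = 0.0443). The RPF call held whichever culture was left out (0.63 to 0.98). In total RNA it did not pass when B2, C3, A7 or B4 (Nat1-/- replicates 2 and 3, Nat1+/- replicates 1 and 2) was omitted, with adjusted p up to 0.165. It also missed the threshold with edgeR (adjusted p = 0.0585), and without the filter on low values (adjusted p = 0.0687).

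Against WT cultures Dppa5a was 4.20-fold higher in RPF and 4.27-fold higher in total RNA of Nat1-/- cultures (log2 95% intervals 1.59 to 2.55 and 1.55 to 2.64; adjusted p = 0.000154 and 0.000215). Nat1+/- cultures were 2.35-fold and 2.77-fold above WT (log2 1.23 ± 0.21 and 1.47 ± 0.25; adjusted p = 0.0166 and 0.0118). Neither Nat1+/- call survived the omission of A7 (Nat1+/- replicate 1), WTex1 or WTex2, with adjusted p from 0.0516 to 0.188. The RefSeq table lists the pseudogenes Dppa5b and Dppa5c beside Dppa5a, and the sources used here do not say how reads shared between copies were counted, so that the absolute level of Dppa5a is uncertain.

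Dppa2 and Dppa4 lie next to each other on chromosome 16. Dppa2 had 530, 654 and 533 RPF reads in the Nat1-/- cultures, against 500, 358 and 386 in the Nat1+/- cultures and 488 and 652 in the WT cultures. Its total RNA was 751, 762 and 471 in the Nat1-/- cultures, against 576, 317 and 455 in the Nat1+/- cultures and 657 and 763 in the WT cultures. Nat1-/- and WT values overlapped in both assays, and the Nat1+/- cultures held the lowest values. In RPF the Nat1+/- and Nat1-/- values did not overlap, as for 48.1% of all genes tested. The difference between Nat1-/- and Nat1+/- was 0.47 ± 0.18 in RPF and 0.57 ± 0.25 in total RNA (log2, SE), not called (adjusted p = 0.0711 and 0.0955). It passed in both assays without Nat1+/- replicate 1 (adjusted p = 0.0435 and 0.0480), and in total RNA without Nat1-/- replicate 3 (adjusted p = 0.0193). Against WT, the Nat1-/- difference was 0.01 in RPF (95% interval -0.45 to 0.47) and -0.13 in total RNA (-0.75 to 0.49).

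Dppa4 had 1685, 3303 and 2303 RPF reads in the Nat1-/- cultures, against 1506, 1732 and 1813 in the Nat1+/- cultures and 1776 and 2936 in the WT cultures. Its total RNA was 1370, 1958 and 1625 in the Nat1-/- cultures, against 2031, 1524 and 1870 in the Nat1+/- cultures and 1552 and 2179 in the WT cultures. Genotypes overlapped in both assays, with B2 highest in RPF and B12 lowest in total RNA. Nat1-/- against Nat1+/- gave 0.48 ± 0.25 in RPF (adjusted p = 0.164) and -0.14 ± 0.18 in total RNA (adjusted p = 0.583). Without Nat1-/- replicate 1 (B12) the RPF difference passed, at 0.72 (adjusted p = 0.0366). Against WT, the Nat1-/- difference was 0.04 in RPF (95% interval -0.59 to 0.67) and -0.17 in total RNA (-0.63 to 0.28).

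**Figure D3:**
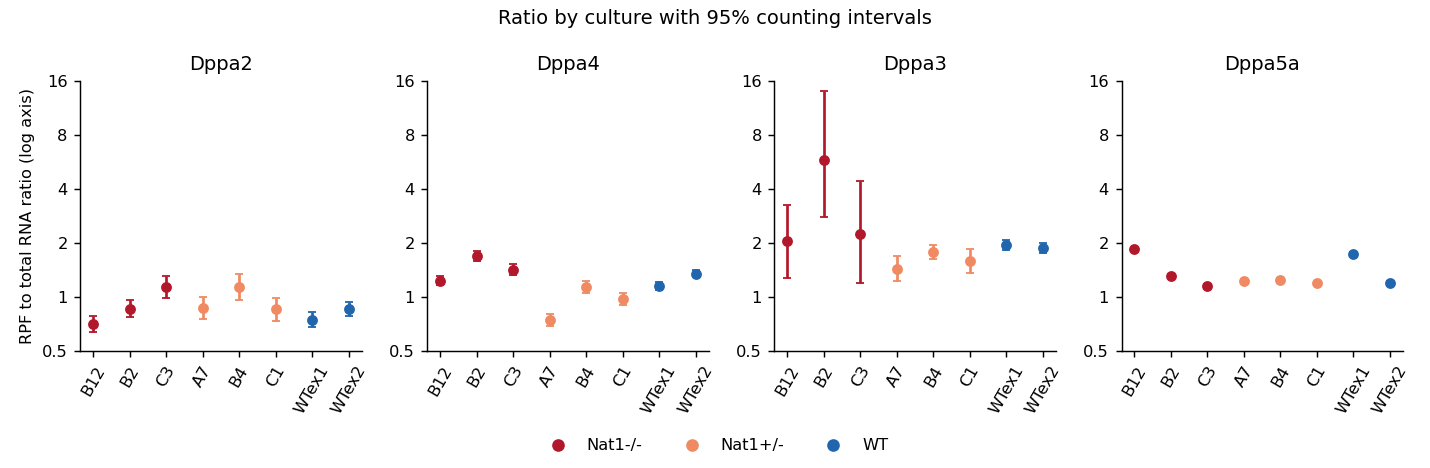
Ratio of RPF to total RNA (normalised reads, log axis) of each Dppa gene by culture, with exact 95% intervals that cover counting error only; for Dppa5a they are narrower than the points. Dppa4 lies between 1.23 and 1.69 in Nat1-/- cultures, above the 3 Nat1+/- cultures, and the Dppa3 ratio of B2 is 5.83 with a wide interval.

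The ratio of RPF to total RNA asks whether footprints moved apart from RNA. For Dppa4 it was 1.23, 1.69 and 1.42 in Nat1-/- B12, B2 and C3, against 0.741, 1.14 and 0.970 in Nat1+/- A7, B4 and C1 and 1.14 and 1.35 in the WT cultures. Every Nat1-/- value was above every Nat1+/- value. Such a separation was common, at 48.1% of genes in RPF and 50.2% in total RNA. Its share over all genes in the ratio is not given here. WTex1 and Nat1+/- B4 were both at 1.14, with overlapping counting intervals, and WTex2 lay within the Nat1-/- range. The difference between Nat1-/- and Nat1+/- was 0.62 ± 0.34 (log2, SE; adjusted p = 0.574) in the unpaired fit, which called 0.580% of genes. Because both libraries come from 1 culture, the ratio was also fitted with a culture term, which called 15.8% of genes. In this paired fit the Dppa4 ratio rose by 0.62 ± 0.16 (adjusted p = 0.0259). That call did not survive the omission of B2, A7 or C1 (Nat1-/- replicate 2, Nat1+/- replicates 1 and 3; adjusted p = 0.104, 0.108 and 0.0745).

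The Dppa3 ratio was 2.03, 5.83 and 2.24 in Nat1-/- B12, B2 and C3, against 1.44, 1.78 and 1.58 in the Nat1+/- cultures and 1.94 and 1.86 in the WT cultures. The Nat1-/- values rest on 39, 8 and 14 total RNA reads, and the exact 95% counting interval of B2 runs from 2.80 to 14.0. Nat1-/- against Nat1+/- gave 0.85 ± 0.60 (adjusted p = 0.730), or 0.85 ± 0.31 in the paired fit (adjusted p = 0.0826). In the paired fit it passed without Nat1-/- replicate 1 or 3 (adjusted p = 0.0237 and 0.0406), and without replicate 2 (B2) it was 0.39.

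For Dppa5a the ratio was 1.85, 1.31 and 1.15 in the Nat1-/- cultures, against 1.23, 1.24 and 1.19 in the Nat1+/- cultures and 1.73 and 1.19 in the WT cultures. Its difference between Nat1-/- and Nat1+/- was 0.21 (95% interval -0.46 to 0.88). The Dppa2 ratio was 0.706, 0.858 and 1.13 in the Nat1-/- cultures, against 0.867, 1.13 and 0.848 in the Nat1+/- cultures and 0.742 and 0.854 in the WT cultures, a difference of -0.09 (-0.79 to 0.61). None of the 4 ratios was called against WT, where the unpaired fit called 0.00773% of genes for Nat1-/- and 0% for Nat1+/-. For Nat1+/- against WT, limma and edgeR called 0 genes in the ratio and DESeq2 13, and 663 genes had an unadjusted limma p under 0.05.

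**Figure D4:**
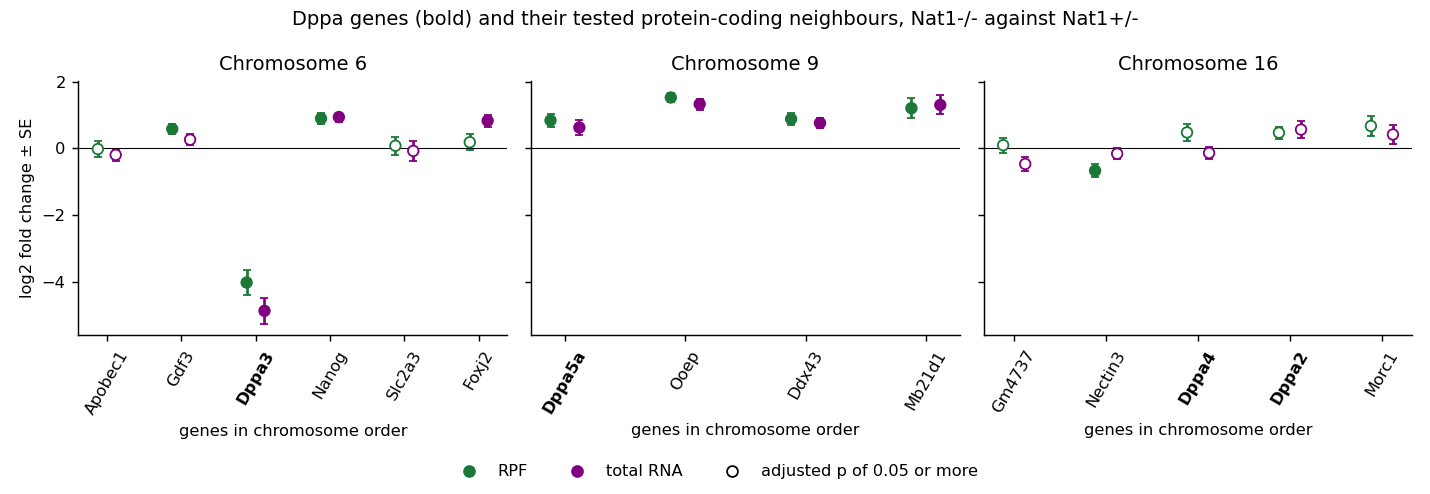
Log2 fold changes ± SE, Nat1-/- against Nat1+/-, of the Dppa genes (bold) and the tested protein-coding genes on either side, in chromosome order and not to scale; filled points have an adjusted p under 0.05. Dppa3 is far below both of its direct neighbours, Gdf3 and Nanog, whereas Dppa5a and the 3 genes after it are all above 0. Over all genes tested, 17.6% were called higher in RPF and 19.8% in total RNA.

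No tested neighbour of Dppa3 was called lower with it. Over all genes tested, 18.6% were called lower in RPF and 20.2% in total RNA. Nanog, the homeobox factor of naive pluripotency, had 18491 RPF reads on average in Nat1-/- cultures, against 9999 in Nat1+/- cultures and 7076 in WT cultures. It rose by 0.90 ± 0.18 in RPF and 0.94 ± 0.13 in total RNA against Nat1+/- (adjusted p = 0.00444 and 0.000646). Gdf3, a TGF-beta family ligand on the other side of Dppa3, rose in RPF by 0.58 ± 0.16 (adjusted p = 0.0177) and had 0.26 ± 0.17 in total RNA (adjusted p = 0.241). Of the outer neighbours, Foxj2 rose in total RNA (0.83 ± 0.18, adjusted p = 0.00520), and the cytidine deaminase gene Apobec1 and the glucose transporter gene Slc2a3 were not called.

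Beside Dppa5a, Ooep encodes a KH-like protein of the subcortical maternal complex of the oocyte. Ooep had 7534, 7825 and 7452 RPF reads in Nat1-/- cultures, against 3059, 2168 and 2772 in Nat1+/- cultures and 1439 and 1658 in WT cultures, the same order of genotypes as Dppa5a. It rose by 1.53 ± 0.15 in RPF and 1.33 ± 0.17 in total RNA (adjusted p = 0.000122 and 0.000339). The next genes, the RNA helicase Ddx43 (0.88 and 0.76) and Mb21d1 (1.21 and 1.30), which encodes the DNA sensor cGAS, also rose in both assays. Over all genes tested, 17.6% were called higher in RPF and 19.8% in total RNA. Any link between these neighbours was not tested. Omt2a, Omt2b and Gsta2, on the other side of Dppa5a, had almost no reads.

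Around Dppa4 and Dppa2, the cell adhesion gene Nectin3 fell in RPF by 0.67 on the log2 scale (adjusted p = 0.0208), with -0.16 in total RNA. Morc1, a repressor of transposons in the male germline, averaged 6230 RPF reads in Nat1-/- cultures, against 3889 in Nat1+/- and 1912 in WT cultures. Its difference from Nat1+/- was not called (0.67 ± 0.30 in RPF, adjusted p = 0.106; 0.42 in total RNA). Gm4737 was not called, Trat1 and Retnlb had 0 reads, and Gm52257 was not among the genes given.

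**Figure D5:**
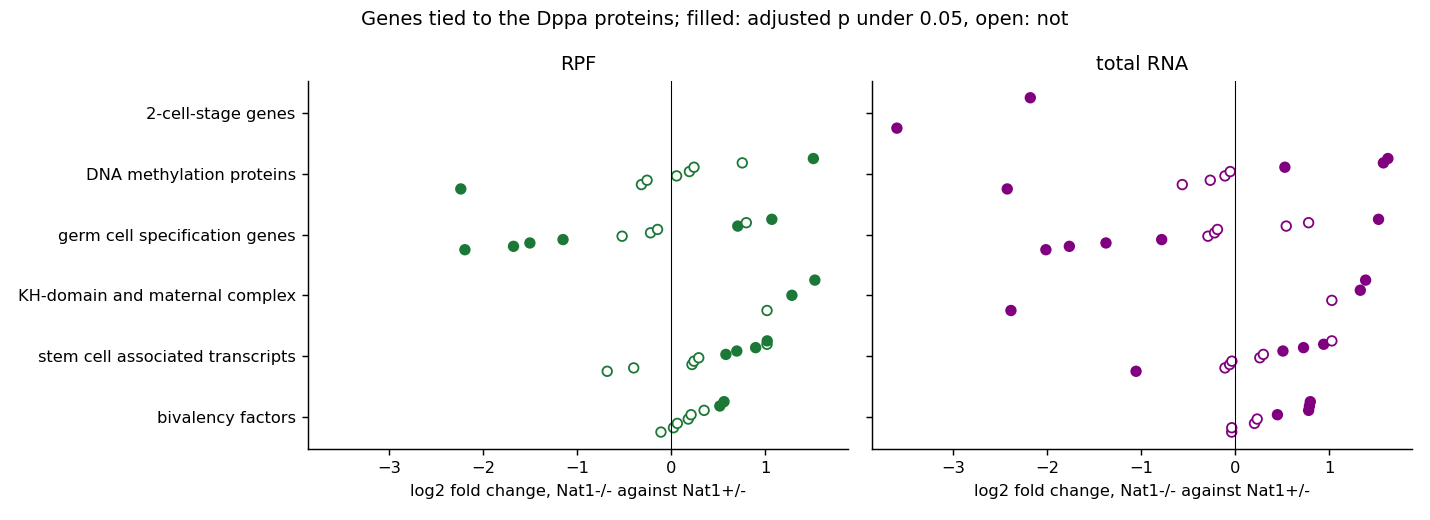
Log2 fold changes, Nat1-/- against Nat1+/-, of the tested genes of 6 lists tied to the functions of the Dppa proteins, in RPF (left) and total RNA (right); each point is a gene, filled where the adjusted p is under 0.05. Dnmt3a, at -2.24 and -2.42, is the lowest point of its list; the total RNA points of Zscan4d, Sp110 and Padi6 are genes that passed the filter only through the cultures where they are high.

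Genes of the 2-cell embryo are downstream of Dppa2 and Dppa4 through the transcription factor Dux. Of 18 on the list, 16 were in the table and most were at or near the limit of detection. Their values summed to 4.56 to 5.40 RPF reads in Nat1-/- cultures, against 22.8 to 88.1 in Nat1+/- cultures and 52.0 to 57.1 in WT cultures. The summed total RNA was 7.99 to 16.4 in Nat1-/- cultures, against 63.7 to 119 in Nat1+/- cultures and 85.6 to 93.8 in WT cultures. Nat1-/- sums were thus below all others, but rest on few reads. Most of the C3 total RNA sum, 13.4 of 16.4, came from Sp110. Any link of these sums to Dppa2 or Dppa4 was not tested. None of the 16 passed the filter in RPF. In total RNA Zscan4d and Sp110 did, but only through the cultures where they are high, so that only a lower value could be found in Nat1-/- cultures and their tests are not given. Zscan4d had 0, 0 and 1.49 total RNA reads in Nat1-/- cultures, against 16.3, 13.0 and 17.1 in Nat1+/- cultures and 17.9 and 14.5 in WT cultures. Sp110 had 6.73, 1.33 and 13.4 total RNA reads in Nat1-/- cultures, against 21.2, 41.7 and 24.3 in Nat1+/- cultures and 13.3 and 11.5 in WT cultures. The Zscan4, Tcstv and Usp17l genes are near-identical copies, so that the split of reads among them is uncertain.

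Of the 8 bivalency factors, 2 rose in RPF and 4 in total RNA and 0 fell in either assay, with a median log2 change of 0.20 and 0.34 beside 0.02 and 0.01 over all genes tested. Over all genes, 17.6% rose in RPF and 19.8% in total RNA, so that the RPF count was near the background share. The Polycomb cofactor Jarid2 (0.52 and 0.79) and the Polycomb subunit Eed (0.56 and 0.45) rose in both assays. Another Polycomb subunit, Suz12 (0.78), and the trithorax methyltransferase Kmt2b (0.80) rose in total RNA and had 0.21 and 0.18 in RPF, not called. Cxxc1, a CpG-binding subunit of the Set1 complex, had 0.35 in RPF (adjusted p = 0.0513).

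Of the 8 DNA methylation proteins, the setting of Dppa3, RPF called 1 higher and 1 lower, and total RNA 3 higher and 1 lower. Over all genes, 17.6% were called higher and 18.6% lower in RPF, which the RPF counts resemble, and 19.8% and 20.2% in total RNA. The de novo methyltransferase Dnmt3a fell in both assays (log2 -2.24 and -2.42; adjusted p = 5.0e-05 and 1.6e-05). The methylcytosine dioxygenase Tet2 rose by 1.51 and 1.62, while Tet3 (1.57) and Tet1 (0.53) rose in total RNA. Tet3 had 0.76 in RPF (adjusted p = 0.0602). Uhrf1, the hemimethylated DNA reader that Dppa3 restrains, had 0.19 ± 0.17 in RPF and -0.05 ± 0.16 in total RNA, not called. Against WT cultures Uhrf1 was higher in Nat1-/- cultures in both assays, by 0.77 in RPF (adjusted p = 0.0122) and 0.55 in total RNA (adjusted p = 0.0354). That comparison called 34.8% and 35.0% of all genes. In Nat1+/- against WT, Uhrf1 had 0.57 and 0.60, not called (adjusted p = 0.0787 and 0.0585). The list's median against Nat1+/- was 0.13 in RPF and -0.08 in total RNA, beside 0.02 and 0.01 over all genes.

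Of 10 germ cell specification genes, which act alongside Dppa3 in primordial germ cells, RPF called 2 higher and 4 lower, and total RNA 1 higher and 4 lower (medians -0.37 and -0.25, beside 0.02 and 0.01 over all genes). The shares over all genes were 17.6% higher and 18.6% lower in RPF and 19.8% and 20.2% in total RNA. The transcription factors Tfap2c (-2.19 in RPF, -2.01 in total RNA) and Prdm1 (-1.15 and -0.78), the piRNA pathway gene Mael (-1.68 and -1.37) and the germ cell helicase gene Ddx4 (-1.50 and -1.76) fell in both assays. Prdm14, which acts in both germ cells and naive ES cells, rose by 1.07 and 1.52. Ifitm3, the other gene called higher in RPF, rose by 0.71 and had 0.54 in total RNA (adjusted p = 0.104). Against WT cultures Ifitm3 was lower in Nat1-/- cultures, with log2 changes of -0.86 in RPF (adjusted p = 0.0152) and -0.998 in total RNA (adjusted p = 0.0176).

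Of 8 KH-domain relatives and maternal complex genes, set beside Dppa5a for their protein family, 3 passed the filter in RPF and 4 in total RNA. With Ooep, Tle6 of the same complex rose in both assays (1.28 and 1.39). Khdc3 had 1.02 ± 0.50 and 1.03 ± 0.38 (adjusted p = 0.140 and 0.0530). Padi6 passed the filter in total RNA only through A7 and B4, and its test is not given. It had 2.07, 1.33 and 5.96 total RNA reads in Nat1-/- cultures, against 24.5, 40.3 and 5.71 in Nat1+/- cultures and 6.44 and 7.26 in WT cultures, so that C1 lay within the Nat1-/- range.

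Of 10 other ES-cell-associated transcripts, RPF called 4 higher and 0 lower, and total RNA 3 higher and 1 lower (medians 0.44 and 0.28, beside 0.02 and 0.01 over all genes). Over all genes, 17.6% were higher and 18.6% lower in RPF, and 19.8% higher and 20.2% lower in total RNA. The total RNA counts were near these shares. The Ras-like gene Eras (1.02 and 0.73) and the zinc finger gene Zfp42 (0.70 and 0.51) rose with Nanog in both assays, and Fbxo15 fell in total RNA (-1.05, adjusted p = 0.00809). In the ratio for Nat1-/- against Nat1+/-, 0 genes of the 6 lists were called by the unpaired fit. That fit called 0.580% of all genes tested, so that the count was near the background share.

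Markers of some other cell types also differed between these genotypes. Of the 9 fibroblast markers, 7 were tested in RPF and 6 in total RNA. Of those tested, Col1a1, Tagln and Thy1 averaged at least 10 reads in Nat1-/- cultures. The others passed the filter only through other genotypes, so that counts of calls would be no measure of the list and are not given. The summed total RNA of all 9 was 73.3 to 92.1 in Nat1-/- cultures, against 255 to 964 in Nat1+/- cultures and 3708 to 7740 in WT cultures. Lum had 5 RPF and 2 total RNA reads over all libraries and was at 0 in cultures of every genotype. The 7 primitive endoderm markers summed to 775 to 1302 RPF reads in Nat1-/- cultures, against 5288 to 8073 and 4038 to 5534 in Nat1+/- and WT cultures. Lamb1, a laminin gene, made up nearly all of that sum, with 1181, 704 and 734 RPF reads in Nat1-/- cultures, against 5174, 5869 and 7842 in Nat1+/- cultures and 3852 and 5322 in WT cultures. Of the 5 tested, Lamb1 was lower in Nat1-/- than in Nat1+/- cultures. Dab2 and Sox7 passed the filter only through genotypes where they are high, and their tests are not given. The 6 neural markers summed, in the same order of genotypes, to 1165 to 1932, against 2352 to 4309 and 8635 to 10025 (4 lower and 1 higher of 6). The gene called higher was Sox1, with 87.5, 92.4 and 110 RPF reads in Nat1-/- cultures. It had 22.8, 19.2 and 40.9 in Nat1+/- cultures and 14.8 and 5.81 in WT cultures. The 6 trophoblast markers summed to 1078 to 1572, against 996 to 3784 and 9149 to 10729 (1 lower of 4), mostly from the keratin genes Krt8 and Krt18. Over all genes tested in RPF, 18.6% were called lower and 17.6% higher, so that the trophoblast count was near the background share. The part of these other cell types in the Dppa values was not tested.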

How the data were processed

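Per the labels' protocols, an Illumina ribosome profiling kit was used for RPF and total RNA of 8 cultures. The authors deposited a normalised signal, whole reads scaled by 1 factor for each library. The tools listed, per the submitters' processing notes, are HTSeq 0.6.1, DESeq2, TopHat2 2.1.0, Bowtie2 2.2.8, cutadapt 1.9.1 and bcl2fastq 2.17, and the builds are GRCm38.p4 and mm10. Strand, multi-mapping and footprint length settings are not given in the sources used here. Scaling by size factors hides a change shared by most genes. Multiplying by 1 factor per library gave whole reads for 100% of values (tolerance 0.001).

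Values were analysed as log2(value + 1) with limma 3.58.1 (R 4.3.3, eBayes with trend), 3 genotype means, genes with a mean of at least 10, two-sided, and Benjamini-Hochberg adjustment over all genes tested; a call is an adjusted p under 0.05. The ratio was tested as the assay by genotype interaction. Scripts were tested on simulated data. The RPF and total RNA libraries of a culture come from 1 culture, per the labels, and deviated together (r = 0.384 to 0.821 across genes), so that the ratio is also given with a culture term. Among the alternatives, count tests were run on the recovered reads (DESeq2 1.42.0, edgeR 4.0.16). The members were chosen by name, and members, lists and tests were all chosen with earlier results of these data known. Named genes are the members, their annotated neighbours (3 on each side), up to 4 genes per list and assay with the smallest adjusted p, and the 5 (total RNA) and 3 (RPF) genes most like each member; Uhrf1, Ifitm3 and the markers named singly fall outside this rule and were chosen after their values were seen. Neighbour order comes from a RefSeq table of GRCm38.p6, used for names and order only. An item that this rule names is not reported here.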

Additional observations from a re-analysis of the deposited data

How the results depend on the processing

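The Dppa3 calls in Nat1-/- against both other genotypes, those of Dppa5a in RPF for the same comparisons, and that of Dppa5a total RNA in Nat1-/- against WT, held in every alternative run. The replicate block (replicate number as a term) moved Dppa5a RPF in Nat1+/- against WT to 1.20 (adjusted p = 0.0521) and left Dppa5a total RNA in Nat1-/- against Nat1+/- at 0.63 (adjusted p = 0.050), neither called; same-numbered cultures had correlated deviations between Nat1-/- and WT (r = 0.14 to 0.33) but not between Nat1-/- and Nat1+/- (r = -0.19 to -0.02) or Nat1+/- and WT (r = -0.11 to 0.014), so the numbers were not taken to pair them. With the block, 162 RPF and 190 total RNA genes were called for Nat1+/- against WT. The culture term as replicate block called 2037, 158 and 146 genes in the ratio for Nat1-/- against Nat1+/-, Nat1-/- against WT and Nat1+/- against WT, and gave 0.62 for the Dppa4 ratio; it changed no other Dppa ratio call.

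Dppa5a total RNA in Nat1-/- against Nat1+/- was 0.63 without the filter and 0.58 with edgeR, not called. In the cultures with a shallow total RNA library, Dppa4 RPF was 0.72 (called), the Dppa2 ratio 0.066 and the ratio count 6; no WT culture has such a library, so this was run for 1 comparison. Against WT in Nat1-/-, Dppa2 RPF was -0.093 with equal library sums, -0.018 with edgeR and -0.013 with DESeq2, Dppa4 RPF -0.072 with equal sums, and the Dppa5a ratio 0.028 with edgeR. For Nat1+/- against WT, DESeq2 called 2519 RPF, 2559 total RNA and 13 ratio genes, and a fit of only the 2 genotypes 2650, 2769 and 2. Ratio counts for Nat1-/- against Nat1+/- were 128 with equal sums, 387 with DESeq2 and 28 with only the 2 genotypes; against WT they were 0 with edgeR, 39 with DESeq2 and 0 with only the 2 genotypes. Equal sums moved the median total RNA change against WT to -0.10 in Nat1-/- and -0.11 in Nat1+/- (0.02 and -0.02 as deposited), and the higher and lower calls to 1632 and 3138 and to 452 and 1155 (2231 and 2608, 636 and 747 as deposited). In RPF, Nat1-/- against WT had 1558 and 2743 (2167 and 2400 as deposited). The cause of these changes was not tested.

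Leaving out each culture in turn gave, for Nat1-/- against Nat1+/-, 2821 to 5464 RPF, 3608 to 6261 total RNA and 6 to 376 ratio genes; against WT, Nat1-/- gave 1866 to 5122, 2360 to 5216 and 0 to 5, and Nat1+/- gave 0 to 2634, 0 to 2846 and 0 to 2. The log2 ranges for Nat1-/- against Nat1+/- were 0.37 to 0.61 (RPF), 0.33 to 0.79 (total RNA) and -0.27 to 0.066 (ratio) for Dppa2, 0.23 to 0.72 for Dppa4 RPF and 0.41 to 0.79 for Dppa5a total RNA. Leaving out cultures with the culture term kept, a check chosen after seeing the data, gave ratio changes of -0.27 to 0.066 for Dppa2, 0.39 to 1.11 for Dppa3 and 0.45 to 0.76 for Dppa4. For Nat1-/- against WT they were -0.19 to 0.22, -0.25 to 0.10 and -0.034 to 0.31 for Dppa2, -0.33 to 0.40 (RPF) and -0.42 to 0.074 (total RNA) for Dppa4, and -0.30 to 0.25 for the Dppa5a ratio. For Nat1+/- against WT they were -1.73 to -0.91 and -1.39 to -0.68 for Dppa3, -0.28 to 0.21 for Dppa4 total RNA, 1.09 to 1.44 and 1.17 to 1.77 for Dppa5a in RPF and total RNA, and -0.51 to 0.039 for its ratio. The lone WT culture left is then assumed to vary like the other genotypes. With 8 total RNA reads in B2, the Dppa3 ratio of Nat1-/- cultures is limited by depth.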

Other observations

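The genes whose log2 values most resembled those of each Dppa gene were ranked by Pearson r over the 8 cultures, among genes with a mean of at least 50, predicted genes passed over. The 8 points fall into 3 genotypes, so that a gene that differs between genotypes in the same way scores high, and r is given as a description. In total RNA the closest to Dppa3 was Fgfr2, a receptor for fibroblast growth factors (r = 0.997), followed by Palld, Aif1l, Fras1 and Sepp1. Fgfr2 had 11.4, 5.33 and 11.9 total RNA reads in Nat1-/- B12, B2 and C3, against 222, 354 and 221 in Nat1+/- A7, B4 and C1 and 468 and 457 in WTex1 and WTex2. Fgfr2 was picked for its likeness to Dppa3 in these same values, so that its high B4 value follows from the choice. In RPF the closest to Dppa3 were Car4 (r = 0.992), the cartilage collagen gene Col2a1 and Timp3. Fgfr2, Fras1, Sepp1, Car4, Col2a1 and Timp3 were under 50 reads in every Nat1-/- culture and passed the filter only through the other genotypes.

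Closest to Dppa5a were Parg, which removes poly(ADP-ribose) (r = 0.987), Lrch1, Hibadh, Baz1b and Ndufa7 in total RNA, and the integrin gene Itga6 (r = 0.993), Igsf21 and Nkx6-3 in RPF. Nkx6-3, a homeobox gene, had 487, 281 and 198 RPF reads in Nat1-/- cultures, against 55.3, 11.1 and 78.7 in Nat1+/- cultures and 3.88 and 3.87 in WT cultures. It passed the filter through its high Nat1-/- values. Closest to Dppa2 were Klhl21 (r = 0.970), the Polycomb gene Cbx7, Rpp38, Dnajc30 and Cpsf4 in total RNA, and Tcp11l1, Alkbh3 and Tmed2 in RPF. Closest to Dppa4 were the ribosomal protein gene Rpl36 (r = 0.942), Fam192a, Bnipl, Hist2h3b and Rps13 in total RNA, and Morf4l1, Zfp53 and Ccdc141 in RPF. Klhl21 had 1514, 1504 and 1096 total RNA reads in Nat1-/- cultures, against 1068, 772 and 928 in Nat1+/- cultures and 1400 and 1556 in WT cultures. By Spearman's rho, 3 of the 5 total RNA genes of Dppa3 and 2 of the 5 of Dppa5a were still among the 100 highest.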
